A study of Mus musculus with 36 samples.

Results

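The Hox genes of the mouse were described across all 12 RNA libraries of a study of the histone methyltransferases MLL3 and MLL4. Members were the 39 genes whose symbol is Hox followed by a cluster letter from a to d and a number, out of 24284 genes listed, and all 39 had a value in every library. Every cell in the study lacked MLL3 (the gene Kmt2c). The f/f cells were MLL3-/-;MLL4flox/flox and kept a conditional MLL4 allele (the gene Kmt2d). The cells called DKO were MLL3-/-;MLL4-/-. RNA was taken from embryonic stem cells (ESC) grown on irradiated fibroblast feeders with LIF, from embryoid bodies (EB) after 4 days in suspension without LIF, from immortalised embryonic fibroblasts (MEF), and from such fibroblasts on day 20 after infection with lentivirus for the reprogramming factors Klf4, c-Myc, Oct4 and Sox. Each ESC and EB group had 2 libraries and each fibroblast and day-20 group had 1. No group with MLL3 present and no time course of the MLL4 deletion was analysed here, and the labels do not say whether the DKO cells of a stage were 1 clone.

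Hox genes encode homeodomain transcription factors that give cells their position along the head-to-tail axis of the embryo. They lie in 4 clusters, HoxA on chromosome 6, HoxB on chromosome 11, HoxC on chromosome 15 and HoxD on chromosome 2, and are numbered by paralog group along each cluster. Low-numbered genes are switched on first and act towards the head, while high-numbered genes act in the trunk, tail, limbs and urogenital tract. In embryonic stem cells the clusters are classically silent and carry both Polycomb marks and methylation of histone H3 at lysine 4, and fibroblasts keep a Hox pattern that reflects the body site they came from. Paralog groups 1 to 4, 5 to 8 and 9 to 13 are called anterior, central and posterior below.

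The libraries differed in how their values were made, which sets what can be compared. Replicate 1 of each ESC and EB group was deposited as read counts and RPKM per transcript, and replicate 2 and all fibroblast and day-20 libraries as FPKM per gene. Paired values below therefore give replicate 1 in RPKM and then replicate 2 in FPKM, and levels were set against each other only within a batch. Depth lay between 11366233 reads (replicate 2 of f/f EB) and 38264254 reads (the MEF library labelled DKO). Kmt2d was read first in every library: the f/f ESC libraries had 13.5 and 18.7 and the DKO ESC libraries 8.89 and 10.7, and in EB the values were 16.4 and 15.4 for f/f and 14.3 and 10.1 for DKO. The MEF library labelled DKO had 23.5 FPKM against 14.4 FPKM in f/f, and the day-20 library labelled DKO 24.8 FPKM against 12.9 FPKM. The last pairs run against a loss, and since the deleted part of the gene is not given in the sources used here, Kmt2d expression checks none of these labels. Y-linked genes, chosen after values were seen, also separated the fibroblast libraries. Eif2s3y stood at 11.2 FPKM in f/f MEF and 26.1 FPKM in f/f day 20, against 1.51 and 0.266 FPKM in the libraries labelled DKO, and Ddx3y, Kdm5d and Uty were lower in the same libraries. In ESC and EB, Eif2s3y lay between 23.9 and 31.8 in all 8 libraries, while Kdm5d was lower in DKO, at 0.794 and 1.85 in f/f against 0.657 and 0.153 in DKO ESC and at 0.656 and 1.70 against 0.103 and 0.0136 in EB. Uty was also lower in each DKO library of ESC and EB than in the f/f library of its batch, and Ddx3y was lower in DKO in replicate 2 (5.04 against 4.84 FPKM in ESC, 4.10 against 1.58 FPKM in EB) and higher in replicate 1. In fibroblasts and at day 20, the genotype and the origin of the cells cannot be told apart. Eif2s3y, Ddx3y, Kdm5d and Uty were also each higher at day 20 than in MEF among f/f cells. Between the libraries labelled DKO each was lower at day 20. Day and origin of the cells therefore cannot be told apart either.

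**Figure D1:**
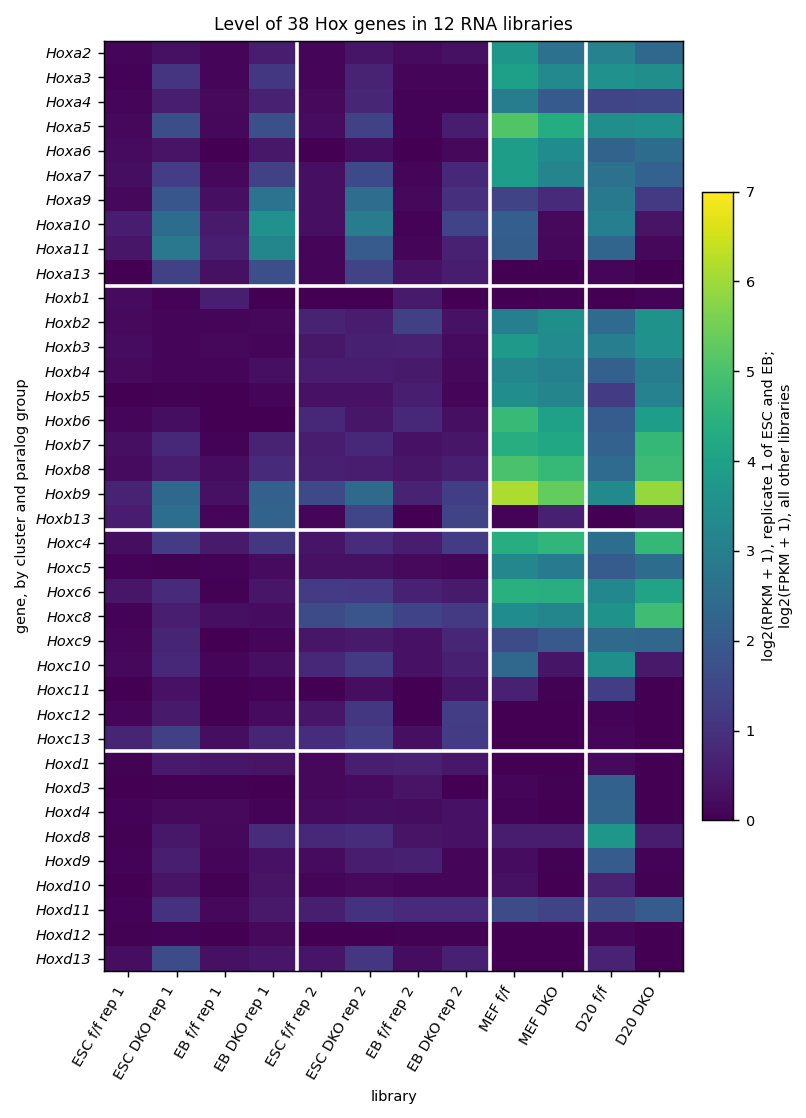
Level of 38 of the 39 Hox genes (rows, by cluster and paralog group) in each of the 12 libraries (columns), as log2(RPKM + 1) for replicate 1 of ESC and EB and log2(FPKM + 1) elsewhere. Fibroblast and day-20 libraries hold the highest levels, up to 69.0 FPKM for Hoxb9, while among ESC and EB libraries the posterior HoxA genes and Hoxb9 and Hoxb13 are brighter in the DKO columns.

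Hox expression was low in stem cells that kept MLL4 and higher in those that had lost it. The 39 genes summed to 7.03 RPKM in replicate 1 and 15.4 FPKM in replicate 2 of f/f ESC, against 45.9 RPKM and 47.6 FPKM in DKO ESC. In the f/f libraries 1 and 3 Hox genes reached a level of 1, and in the DKO libraries 14 and 16 did. Both DKO libraries lay above the f/f library of their batch for 31 of 39 genes, and both lay below for 1, Hoxb2. Over all genes with a read, 36% were higher and 27.6% lower in both batches. The Hox genes were mostly weakly expressed, and of the 32 with a mean under 1, 24 were higher in both batches, where 28.7% of all genes in that range were. The 31 were unevenly placed: all 11 HoxA genes, all 9 HoxD genes, 7 of 9 HoxC genes and 4 of 10 HoxB genes. A difference of any size counts here, and for Hoxd12 and Hoxb5 the ratio in replicate 2 was only 1.002.

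HoxA carried the largest part of the difference in summed level. Its 11 genes summed to 2.97 and 1.72 in f/f ESC and to 24.1 and 24.2 in DKO ESC, ratios of 8.12 in the first batch and 14.1 in the second. The posterior genes summed to 0.903 and 0.589 against 14.7 and 16.2, ratios of 16.3 and 27.5, and made up 30.4% and 34.3% of the cluster's level against 60.9% and 67.0%. The central genes had ratios of 8.38 and 9.60 and the anterior genes 3.45 and 5.76. In both batches the ratio was smallest for the anterior and largest for the posterior genes. No test was made of this order.

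Hoxa10 (Entrez gene 15395), which helps pattern the uterus and the thigh, stood at 0.445 and 0.221 in f/f ESC against 4.52 and 6.78 in DKO ESC. Hoxa11 (15396), needed for the forearm, the kidney and the uterus, stood at 0.339 and 0.0810 against 5.93 and 3.07. Hoxa9 (15405), a regulator of blood progenitors, stood at 0.119 and 0.215 against 2.70 and 4.65. In all 3 genes each DKO value was more than 10 times the f/f value of its batch, with ratios from 10.2 for Hoxa10 in replicate 1 to 37.8 for Hoxa11 in replicate 2. Their log2 differences on the log2(value + 1) scale were 2.30 ± 0.57, 2.14 ± 0.54 and 1.97 ± 0.52 (SE, n = 2 per group), with adjusted p of 0.0817, 0.0840 and 0.0930 in limma, so none passed the threshold of 0.05. The scale understates changes of low genes: edgeR's quasi-likelihood test on reads gave log2 differences of 4.36, 4.76 and 4.39 and adjusted p of 0.0453, 0.0288 and 0.0492. Over 16 alternatives the adjusted p ranged from 0.0191 to 0.359 for Hoxa10, from 0.0168 to 0.490 for Hoxa11 and from 0.0191 to 0.400 for Hoxa9.

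Hoxa13, the last gene of the cluster and a regulator of digits, bladder and hindgut, had 0 reads in replicate 1 of f/f ESC (exact Poisson 95% upper bound 3.69 reads) and 40 reads in the DKO library of that batch (28.6 to 54.5). In replicate 2 it stood at 0.0709 FPKM in f/f and 1.71 FPKM in DKO ESC. The interval covers counting error only. Hoxa5, a regulator of the neck and lung, stood at 0.116 and 0.173 against 2.21 and 1.61, and Hoxa3, which patterns the thymus and parathyroid, at 0.0427 and 0.0911 against 1.08 and 0.621. Hoxa7, a gene of the thoracic region, stood at 0.195 and 0.214 against 1.40 and 1.90. Hoxa2, Hoxa4 and Hoxa6 stayed under 1 in all 4 libraries and were higher in DKO in both batches.

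The 4 posterior HoxA genes were each higher in both DKO ESC libraries, so the 250 bases before their annotated starts are shown, 5′ to 3′, with each CpG in capitals (RefSeq, build GRCm38.p6, minus strand; Hoxa10 has 2 starts, and the deposited values do not tell them apart). The windows are chr6:52227371-52227620 for Hoxa9, chr6:52234940-52235189 and chr6:52240855-52241104 for Hoxa10, chr6:52245811-52246060 for Hoxa11 and chr6:52260881-52261130 for Hoxa13.
Hoxa9: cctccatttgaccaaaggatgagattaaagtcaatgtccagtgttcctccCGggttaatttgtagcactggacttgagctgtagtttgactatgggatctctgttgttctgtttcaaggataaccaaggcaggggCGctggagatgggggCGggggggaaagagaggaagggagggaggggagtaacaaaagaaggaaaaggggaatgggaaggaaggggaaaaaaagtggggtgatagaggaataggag
Hoxa10, first start: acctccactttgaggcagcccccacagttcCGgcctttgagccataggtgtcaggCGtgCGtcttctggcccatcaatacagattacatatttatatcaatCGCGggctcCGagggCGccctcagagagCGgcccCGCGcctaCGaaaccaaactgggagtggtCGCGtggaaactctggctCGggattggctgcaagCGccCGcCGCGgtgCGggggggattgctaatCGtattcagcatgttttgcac
Hoxa10, second start: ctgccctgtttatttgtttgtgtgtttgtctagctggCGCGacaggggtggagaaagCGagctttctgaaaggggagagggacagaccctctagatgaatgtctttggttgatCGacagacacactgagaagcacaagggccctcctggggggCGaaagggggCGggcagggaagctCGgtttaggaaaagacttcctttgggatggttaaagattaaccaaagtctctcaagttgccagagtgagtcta
Hoxa11: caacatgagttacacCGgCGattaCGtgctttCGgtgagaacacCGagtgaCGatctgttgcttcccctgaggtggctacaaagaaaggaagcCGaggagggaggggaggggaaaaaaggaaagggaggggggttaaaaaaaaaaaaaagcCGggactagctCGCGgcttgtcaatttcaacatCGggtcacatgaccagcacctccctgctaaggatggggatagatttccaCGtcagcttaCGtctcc
Hoxa13: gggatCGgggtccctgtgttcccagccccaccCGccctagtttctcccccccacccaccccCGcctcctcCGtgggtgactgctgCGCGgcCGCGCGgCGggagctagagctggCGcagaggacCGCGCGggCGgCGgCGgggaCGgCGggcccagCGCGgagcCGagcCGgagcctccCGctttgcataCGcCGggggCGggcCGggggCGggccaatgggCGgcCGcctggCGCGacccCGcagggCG
The windows hold 3, 20, 7, 13 and 35 CpG in that order, so genes with like differences had both CpG-poor and CpG-dense windows. The table held 24 starts for 22 Hox genes, with a median of 12.5 CpG and a range of 2 to 35, against a median of 6 over all 32851 starts. The letters CCAAT or ATTGG (the same motif on either strand) were in 14 of 24 Hox windows and in 33.9% of all windows, and TATAAA or TTTATA in 4 of 24 and in 12.4%. A match is a description of the letters and not a binding site.

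Within HoxB, the difference between genotypes sat at the posterior end. Hoxb13 (15408), which acts in the tail bud and prostate, stood at 0.455 and 0.0706 in f/f ESC against 4.78 and 1.73 in DKO ESC. In replicate 1 this was 11 reads (exact Poisson 95% interval 5.49 to 19.7) against 124 (103 to 148). Its log2 difference was 1.67 ± 0.26 (SE, n = 2 per group; limma, adjusted p = 0.0284), and it was the only Hox gene that rose among the 7 tested (1.57% of all 12466 genes tested did). The 7 are not all members: Hoxb13, Hoxa9, Hoxa10 and Hoxa11 stayed under 1 in every f/f library and reached the mean of 1 needed for testing only through the DKO libraries, so the count is not read against that share. The call was lost without either f/f or either DKO library of ESC (adjusted p from 0.101 to 0.187) and without the batch term (adjusted p = 0.301), and edgeR on reads gave 0.0179. Over all 16 alternatives it ranged from 0.0157 to 0.301, with the gene higher in DKO in each.

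Hoxb9 (15417), which patterns the rib cage, stood at 0.624 and 1.91 in f/f ESC against 4.11 and 4.35 in DKO ESC, a difference of 1.27 ± 0.38 on the log2 scale (SE, limma with n = 2 per group, adjusted p = 0.125). The anterior HoxB genes showed no such shift. Hoxb1, Hoxb2, Hoxb3 and Hoxb4 together stood at 0.593 and 1.41 in f/f ESC against 0.284 and 1.48 in DKO ESC, while Hoxb9 and Hoxb13 together stood at 1.08 and 1.98 against 8.89 and 6.09. The central HoxB genes were higher in DKO in the first batch (0.440 against 1.42) and about level in the second (1.97 against 1.81).

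In HoxC and HoxD the differences were larger in the first batch than in the second. HoxD, which patterns limbs and the external genitalia, summed to 0.434 and 2.16 in f/f ESC and to 4.90 and 4.51 in DKO ESC, ratios of 11.3 and 2.09. Hoxd13, a regulator of digits, was the highest HoxD gene in both DKO libraries, at 2.08 and 1.16 against 0.197 and 0.317 in f/f ESC. HoxC, which acts mainly in the trunk and hindlimb, summed to 1.51 and 6.21 in f/f and to 6.31 and 9.49 in DKO ESC, ratios of 4.19 and 1.53. Hoxc4, the first gene of HoxC, stood at 0.192 and 0.327 against 1.33 and 0.867. Hoxc8 (15426), a trunk gene, stood at 0.0458 and 2.03 against 0.513 and 2.57, a difference of 0.38 ± 0.20 on the log2 scale (SE, limma with n = 2 per group, adjusted p = 0.337).

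**Figure D2:**
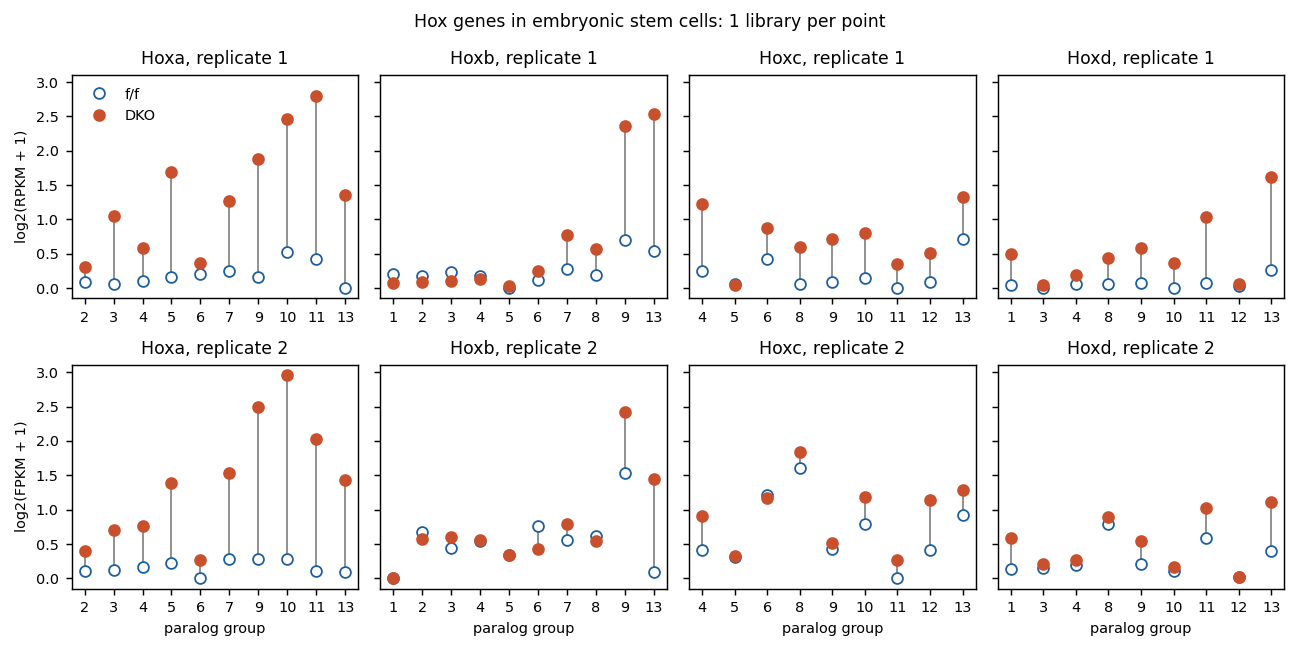
Level of the same 38 Hox genes by paralog group in the 2 f/f (open) and 2 DKO (filled) ESC libraries, as log2(RPKM + 1) in replicate 1 (top) and log2(FPKM + 1) in replicate 2 (bottom), 1 library per point. Every HoxA gene drawn lies higher in DKO in both rows, with the widest gaps at groups 9 to 11, and in HoxB the gap is at groups 9 and 13.

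ESC were grown on fibroblast feeders, so the fibroblast markers and the Hox pattern of fibroblasts are set beside these values. The MEF libraries are of immortalised cells and not of the irradiated feeders, whose own Hox pattern was not measured here and may differ. The 20 fibroblast and feeder markers summed to 128 RPKM in f/f and 129 RPKM in DKO ESC of replicate 1, and to 708 and 599 FPKM in replicate 2, and 0 of the 18 tested passed the threshold between genotypes (limma). None of the 20 markers was at 0 in any ESC library. Hoxa13 and Hoxd13 were at 0 FPKM in both MEF libraries and Hoxb13 at 0.0527 and 0.518 FPKM, below the 1.71, 1.16 and 1.73 FPKM of Hoxa13, Hoxd13 and Hoxb13 in replicate 2 of DKO ESC. Of the 4 highest Hox genes of f/f MEF, Hoxb9 and Hoxa5 were higher in DKO ESC in both batches, as given above. Hoxb6 stood at 0.0821 and 0.701 in f/f against 0.192 and 0.351 in DKO ESC and Hoxb8 at 0.144 and 0.526 against 0.479 and 0.457, so both were higher in DKO in replicate 1 and lower in replicate 2. The 10 ESC markers summed to 2099 and 2574 in f/f and to 2030 and 2620 in DKO ESC. The part of feeder cells in the Hox levels of ESC was not tested.

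Genes beside and inside the clusters were read in the same libraries. Of 16 protein-coding neighbours, 2 on each side of each cluster, 11 were tested in ESC and 2 passed, where 4.24% of all genes passed in either direction. These were Snx10 beside HoxA, which fell, and Mtx2 beside HoxD, which rose, both just under the threshold. Mtx2 stood at 16.3 and 18.4 in f/f against 25.7 and 26.8 in DKO ESC (log2 difference 0.57; limma, adjusted p = 0.0495). Around HoxA, Snx10 beyond the anterior end was lower in DKO ESC, at 21.4 and 18.2 in f/f and 9.21 and 10.5 in DKO (log2 difference -0.93; limma, adjusted p = 0.0419), and Skap2, the next gene inward, stood at 15.6 and 26.2 against 22.1 and 39.2 (0.52; adjusted p = 0.468). Beyond Hoxa13, Evx1, a homeobox gene linked to the cluster, stood at 0.434 and 0.0322 against 1.09 and 0.630 (0.60; adjusted p = 0.246), and Hibadh at 30.5 and 47.0 against 19.7 and 31.0 (-0.60; adjusted p = 0.110). Of 16 noncoding RNAs of the clusters that were listed, 3 were tested and 2 rose, where 1.57% of all genes did. Both stayed under 1 in the f/f ESC libraries, and Mira in every f/f library of ESC and EB, so that it passed the filter only through DKO libraries. Mira, a transcript between Hoxa6 and Hoxa7, stood at 0.204 and 0.407 in f/f ESC against 3.93 and 3.84 in DKO ESC (1.91 ± 0.27, SE, n = 2 per group; limma, adjusted p = 0.0227). The hairpin row of Mir196a-1, next to Hoxb9, stood at 0 and 0.909 against 5.96 and 5.92 (2.33 ± 0.28, SE, n = 2 per group; limma, adjusted p = 0.0163). A hairpin row is short, so these Mir196a-1 levels rest on few reads for their size. Libraries of poly(A) RNA do not measure the mature microRNA, and where transcripts overlap the counting rule is not given in the sources used here. Hoxa11os, antisense to Hoxa11, stood at 0.207 and 0.101 against 2.23 and 1.89, and without strand its reads cannot be told from those of Hoxa11.

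Known regulators and partners of Hox genes were read from lists chosen with earlier results of these data known. Of the Polycomb genes, whose products keep Hox clusters silent, 0 of 28 tested passed the threshold in DKO ESC, with a median log2 difference of -0.07 against 0.02 over all genes. The largest difference was in Phf19, at -0.96 (adjusted p = 0.0839). Of 8 tested genes of the KMT2A and KMT2B complexes, which maintain Hox expression, 0 passed, and Kmt2b was the largest at -0.38 (adjusted p = 0.150). Kmt2a itself lacked a matched value in some libraries and was not tested. Both H3K27 demethylases, Kdm6a and Kdm6b, were tested and neither passed (0.03 and 0.10). Of 9 tested genes listed as TALE cofactors, whose Pbx and Meis members bind DNA together with Hox proteins, 1 passed. This was Tgif2, which fell by 1.09 on the log2 scale (adjusted p = 0.0241). Of 10 tested retinoid pathway genes and 13 tested posterior signals, 0 passed. Cdx1, a homeobox activator of posterior Hox genes, rose by 1.64 ± 0.29 (SE, n = 2 per group; adjusted p = 0.0378), from 2.23 and 0.768 to 9.75 and 4.17, whereas Cdx2 stood at 0.759 and 0.0216 in f/f and 0.755 and 0.0866 in DKO ESC. All p-values in this paragraph are from limma, in which 4.24% of all genes passed in either direction.

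In embryoid bodies the DKO libraries were again higher in posterior HoxA and HoxB genes, with larger differences in level in the first batch than in the second. Hoxb13 stood at 0.0816 and 0 in f/f EB against 3.69 and 1.70 in DKO EB, which in replicate 1 was 2 reads against 112. Its log2 difference was 1.77 ± 0.26 (SE, n = 2 per group; limma, adjusted p = 0.0233), and it was the only one of the 7 tested Hox genes that rose (0.826% of all genes did). As in ESC, Hoxb13 was tested only because of its level in the DKO libraries, so its count is not read against that share. The call was lost without replicate 1 of f/f ESC (adjusted p just above the threshold), replicate 1 of f/f EB (0.123), replicate 1 of DKO EB (0.135), replicate 2 of f/f EB (0.101) and without the batch term (0.251). Hoxa10 stood at 0.418 and 0.0560 against 10.7 and 1.63 (2.18 ± 0.57, SE, n = 2 per group; adjusted p = 0.0944), Hoxa9 at 0.212 and 0.109 against 5.40 and 0.943 (1.60 ± 0.52; adjusted p = 0.150), and Hoxa11 at 0.502 and 0.0769 against 8.34 and 0.552 (1.58 ± 0.54; adjusted p = 0.167). In each of these genes both DKO libraries were above the f/f library of their batch, by ratios of 16.6 to 25.6 in replicate 1 and of 7.18 to 29.1 in replicate 2. Over the 16 alternatives run for each, adjusted p ranged from 0.0173 to 0.351 for Hoxa10, from 0.0201 to 0.455 for Hoxa9 and from 0.0160 to 0.658 for Hoxa11.

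Other tested members stood closer. Hoxb9 was at 0.238 and 0.587 in f/f EB against 3.46 and 1.46 in DKO EB (1.24 ± 0.38, SE, n = 2 per group; limma, adjusted p = 0.135) and Hoxc8 at 0.226 and 1.63 against 0.182 and 1.29 (-0.13 ± 0.20; adjusted p = 0.763). The HoxA sum was 2.43 and 1.35 in f/f EB and 36.1 and 6.04 in DKO EB, ratios of 14.8 and 4.48. Both DKO libraries lay above the f/f library of their batch for 10 of 11 HoxA genes, 4 of 10 HoxB genes, 6 of 9 HoxC genes and 1 of 9 HoxD genes, 21 of 39 in all, where 30.7% of all genes were higher in both batches. For 5 members both lay below, as for 29.8% of all genes. Among the 32 members with a mean under 1, 15 were higher in both batches, against 24.9% of all such genes. HoxD, whose 9 genes had all been higher in DKO ESC, summed to 1.07 and 2.99 in f/f EB and to 2.63 and 2.43 in DKO EB. The difference of the genotype effect between EB and ESC was tested in the 7 genes: none passed in limma, as 0% of all genes did, and none had an unadjusted p under 0.05.

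The anterior gene Hoxb1, an early hindbrain gene that responds to retinoic acid, went the other way. It had 19 reads (0.490 RPKM) in replicate 1 and about 10 reads (0.424 FPKM) in replicate 2 of f/f EB, and 0 reads in both DKO EB libraries. In f/f ESC it had 6 and 0 reads. Too low for the main test, it was tested where genes with a mean of at least 0.1 entered. It reached that mean only through the 2 f/f EB libraries, so that both calls follow from the selection and support nothing. There it fell in DKO EB by 0.54 on the log2 scale (SE 0.10, n = 2 per group; limma, adjusted p = 0.0495, where 2.73% of all genes fell), and rose in f/f EB against f/f ESC by 0.44 (adjusted p = 0.0497, where 6.67% rose). Both values lie just under the threshold and rest on few reads. Hoxb3 was also lower in both DKO EB libraries, at 0.0637 and 0.160 against 0.111 and 0.567.

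Between ESC and EB, none of the 7 Hox genes of the main test passed in either genotype. Between f/f EB and f/f ESC, 12% of all genes passed, none of the 7 had an unadjusted p under 0.05, and edgeR called 0. Hoxa9, Hoxa10, Hoxa11 and Hoxb13 were under 1 in every f/f library and were tested only through DKO libraries. They could hardly pass between f/f groups, so the count is not read against the 12%. Between DKO EB and DKO ESC, 0 of 7 passed in limma against 0.826% of all genes, and 2 had an unadjusted p under 0.05. The HoxA sum was 2.97 and 1.72 in ESC and 2.43 and 1.35 in EB among f/f cells. In DKO cells it went from 24.1 to 36.1 in the first batch and from 24.2 to 6.04 in the second, so the batches disagreed in direction. The fibroblast and feeder markers summed to 204 and 386 in f/f EB and to 62.5 and 108 in DKO EB. Of 18 tested markers, Tagln fell by 3.60 and Thy1 by 1.02 on the log2 scale in DKO EB against f/f EB (limma, adjusted p = 0.0126 and 0.0255), and the part of fibroblasts in the Hox values of EB was not tested.

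**Figure D3:**
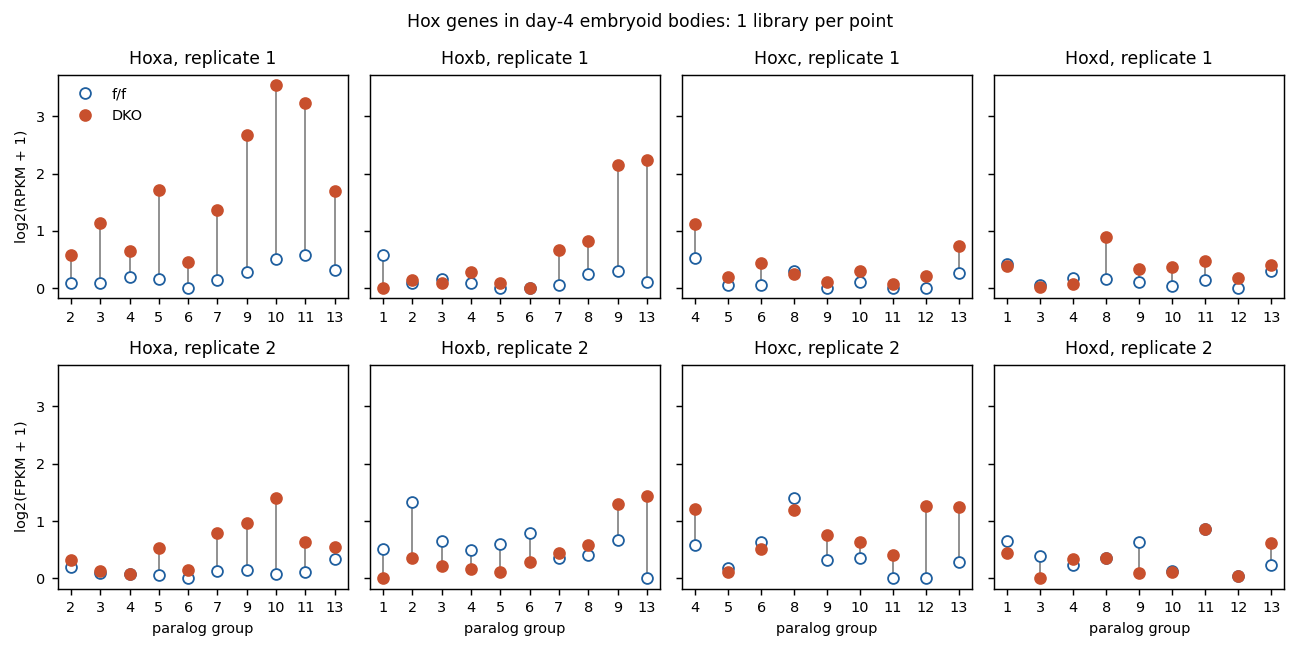
Level of the same 38 Hox genes by paralog group in the 2 f/f (open) and 2 DKO (filled) EB libraries, as log2(RPKM + 1) in replicate 1 (top) and log2(FPKM + 1) in replicate 2 (bottom), 1 library per point. Posterior HoxA genes, Hoxb9 and Hoxb13 are higher in DKO in both rows and by more in the top row, and the anterior HoxB genes of the bottom row are lower in DKO.

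Signals of the posterior axis of the embryo were lower in the DKO bodies, in which posterior HoxA genes were higher. Of 13 tested posterior axis signals, 7 fell in DKO EB, where 3.61% of all genes fell, and 0 rose. Markers of other lineages moved in the same comparison: 3 of 5 tested endoderm markers fell (Foxa2 by 2.01, Gata4 by 1.99 and Gata6 by 1.36), 1 of 3 mesoderm markers (Msx1, by 2.09) and 2 of 10 ESC markers (Lin28a by 2.76, Pou5f1 by 0.76), and of 3 neural markers Nes fell by 3.40 and Sox1 rose by 2.10. The part of these markers in the Hox values was not tested. Foxa2, Gata4, Gata6 and Msx1 reached the mean of 1 needed for testing only through f/f EB, and Sox1 only through DKO EB. Some of the tested posterior signals also reached it only through f/f EB. These calls follow in part from that selection, so the counts are not read against the share of all genes. The T gene, which encodes Brachyury of the primitive streak, stood at 69.5 and 45.1 in f/f EB against 1.08 and 1.05 in DKO EB (log2 difference -4.79 ± 0.57, SE, n = 2 per group; limma, adjusted p = 0.0135), Sp5 fell by 3.96 (adjusted p = 0.0117) and Fgf8 by 3.57 (adjusted p = 0.0355). Evx1, the homeobox neighbour of Hoxa13, rose in f/f EB to 3.39 and 4.80 from 0.434 and 0.0322 in ESC (2.05 ± 0.26; adjusted p = 0.0152) and stood at 0.466 and 0.645 in DKO EB (-1.70 ± 0.26 against f/f EB; adjusted p = 0.0251). Evx1, next to HoxA on the chromosome, was lower in both DKO EB libraries, while the posterior HoxA genes were higher. Evx1 was tested only because of its level in f/f EB, and Hoxa9, Hoxa10 and Hoxa11 only because of the DKO libraries. Those HoxA genes did not pass in EB, so nothing is read from the opposite directions. Crabp2, which carries retinoic acid in the cell, fell by 2.31 (adjusted p = 0.0251), the only one of 10 tested retinoid pathway genes that passed. Mir196a-1 stood at 1.58 and 1.73 in f/f against 6.78 and 5.83 in DKO EB (1.46 ± 0.28, limma, adjusted p = 0.0468). As in ESC, these levels rest on few reads, and the adjusted p lies just under the threshold. Polycomb genes gave 0 calls of 28, genes of the KMT2A and KMT2B complexes 0 of 8 (Kmt2a again not tested), and TALE cofactors 0 of 9.

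**Figure D4:**
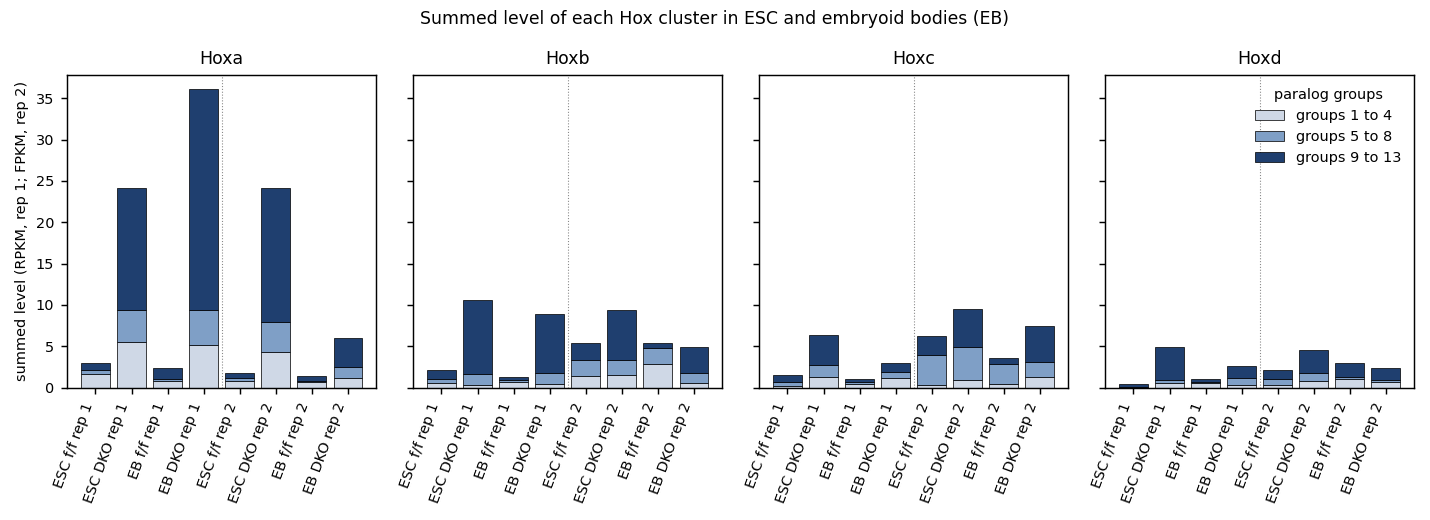
Summed level of the genes of each Hox cluster in the 8 ESC and EB libraries (RPKM left of the dotted line, FPKM right of it), split into paralog groups 1 to 4, 5 to 8 and 9 to 13, 1 library per bar. The HoxA bars of DKO libraries reach 24.1, 36.1, 24.2 and 6.04, against at most 2.97 in f/f, and most of their height is groups 9 to 13.

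In fibroblasts the central genes and Hoxb9 led. In f/f MEF paralog groups 5 to 8 summed to 185.5 FPKM, groups 1 to 4 to 82.7 FPKM and groups 9 to 13 to 86.3 FPKM, of which Hoxb9 made up 69.0 FPKM. The 39 genes summed to 354 FPKM in the f/f MEF library, with 25 at 1 FPKM or more, and to 252 FPKM in the library labelled DKO, with 20. Against f/f ESC of replicate 2, 22 of 24 members past the filter were at least 2-fold higher in f/f MEF, where 19% of all genes were higher. The filter favours this direction, since 21 of the 24 were under 1 FPKM in ESC and passed through MEF, and 15 members were left out, so nothing is read from the count. Against DKO ESC of replicate 2, 19 of 25 were higher in the MEF library labelled DKO (16.7% of all genes), and 4 were lower, among them Hoxa9, Hoxa10 and Hoxa11 (19.2% of all genes were lower). Of these 25, 14 were under 1 FPKM in ESC and 5 in MEF. With 1 library per group in MEF these differences have no replicate check and no p-value. Hoxb9 was the highest member, at 69.0 FPKM in f/f against 39.6 FPKM in the library labelled DKO. In f/f MEF next came Hoxa5 at 33.3 FPKM, Hoxb8 at 30.5, Hoxb6 at 25.5 and Hoxc6 at 20.6. In the library labelled DKO the order was Hoxb8 at 25.0 FPKM, Hoxc4 at 23.6, Hoxc6 at 20.1 and Hoxa5 at 19.0, with Hoxb6 at 15.0. HoxD was nearly silent, at 3.04 and 2.24 FPKM in sum, most of it Hoxd11 at 2.01 and 1.71 FPKM.

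Between the 2 MEF libraries, the posterior ends of HoxA and HoxC differed most. Hoxa10 was 3.22 FPKM in f/f against 0.125 FPKM in the library labelled DKO, Hoxa11 was 3.17 and 0.103 FPKM, and Hoxc10, a hindlimb gene, was 4.10 and 0.314 FPKM. With Hoxa2 at 11.9 and 5.26 FPKM, these were the 4 of 25 members past the filter that were at least 2-fold lower in the library labelled DKO, against 5.29% of all genes, and 0 were higher, against 3.85%. Of the 25, 5 were under 1 FPKM in the library labelled DKO and passed through f/f MEF. The differences on the log2(FPKM + 1) scale were -1.91 for Hoxa10, -1.92 for Hoxa11, -1.96 for Hoxc10 and -1.05 for Hoxa2. Another 18 members were lower by less, so that 22 of 25 lay below 0, with a median of -0.50 against 0.04 over all genes. HoxB and HoxC differed less in sum (182 and 132 FPKM, 64.9 and 61.7 FPKM), and posterior HoxA, at 8.11 and 1.05 FPKM, differed 7.76-fold. The posterior HoxA genes were thus higher without MLL4 in ESC and lower in the MEF library labelled DKO. Beside them, 6 of 19 fibroblast markers past the filter were lower in that library and 0 higher, and the part of this difference between the cell populations in the Hox values was not tested.

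At day 20 the f/f library stood apart from the other 3 fibroblast-derived libraries. Since Y-linked genes also differed between MEF and day 20, the day and the origin of the cells cannot be told apart here. HoxB was lower in it than in f/f MEF along most of the cluster: Hoxb9 went from 69.0 to 9.06 FPKM, Hoxb8 from 30.5 to 4.41, Hoxb6 from 25.5 to 3.08, Hoxb7 from 19.4 to 3.56 and Hoxb5 from 9.77 to 1.37, and with Hoxb4 (8.44 to 3.44) 6 of 8 members past the filter were at least 2-fold lower. Hoxb2 (7.05 to 4.42) and Hoxb3 (12.5 to 7.02) were lower by less. HoxD was higher: Hoxd8 went from 0.480 to 12.2 FPKM (about 20 to 433 reads), Hoxd4 from 0.0405 to 3.70, Hoxd3 from 0.0953 to 3.55 and Hoxd9 from 0.165 to 3.10. In HoxA, the central genes were lower, Hoxa5 from 33.3 to 9.90, Hoxa7 from 14.0 to 5.16, Hoxa6 from 14.1 to 3.66 and, among the anterior ones, Hoxa4 from 6.79 to 1.75 FPKM. The posterior ones were higher, Hoxa9 from 1.71 to 6.05 and Hoxa10 from 3.22 to 7.14 FPKM. Hoxa11 stood at 3.17 and 3.91 FPKM, and Hoxa3 at 14.5 and 10.7. HoxC repeated this division, with Hoxc4 from 19.6 to 4.76, Hoxc5 from 8.44 to 3.08 and Hoxc6 from 20.6 to 8.66 FPKM, Hoxc8 at 9.55 and 11.2, and Hoxc10 from 4.10 to 10.3 FPKM.

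In counts, 13 of 30 members past the filter were at least 2-fold lower at day 20 than in MEF among f/f cells, where 5.75% of all genes were, and 6 were higher, where 7.17% were. Of the 30, 5 were under 1 FPKM in MEF and passed through day 20. The lower ones were 6 HoxB, 4 HoxA and 3 HoxC genes, and the higher ones 4 HoxD genes with Hoxa9 and Hoxc10. Between the 2 libraries labelled DKO, 1 of 21 members moved past 2-fold, Hoxc8 from 8.26 to 27.9 FPKM, against 8.18% of all genes in either direction. There the HoxB sum was 132 FPKM in MEF and 159.5 FPKM at day 20, with Hoxb9 at 39.6 and 58.1 FPKM and Hoxb7 at 17.1 and 24.1. HoxD was 2.24 and 3.58 FPKM.

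Day-20 libraries of the 2 genotypes therefore differed in opposite directions in the HoxB and HoxD sums. Within HoxC the direction changed along the cluster. At day 20, 8 of 28 members past the filter were at least 2-fold higher in the library labelled DKO, 6 of them HoxB genes with Hoxc4 and Hoxc8, where 8.41% of all genes were. Another 8 were lower, where 11.3% of all genes were: Hoxa9, Hoxa10, Hoxa11, Hoxc10, Hoxd3, Hoxd4, Hoxd8 and Hoxd9. Of the 28, 7 were under 1 FPKM in the library labelled DKO and passed through f/f. The HoxB sum was 36.4 FPKM in f/f against 159.5 FPKM in the library labelled DKO, the HoxD sum was 26.0 and 3.58 FPKM, and posterior HoxA was 17.2 and 1.67 FPKM. Hoxa10 was 7.14 FPKM in f/f against 0.285 FPKM in the library labelled DKO, and Hoxa11 was 3.91 and 0.112 FPKM, the same direction as in MEF.

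**Figure D5:**
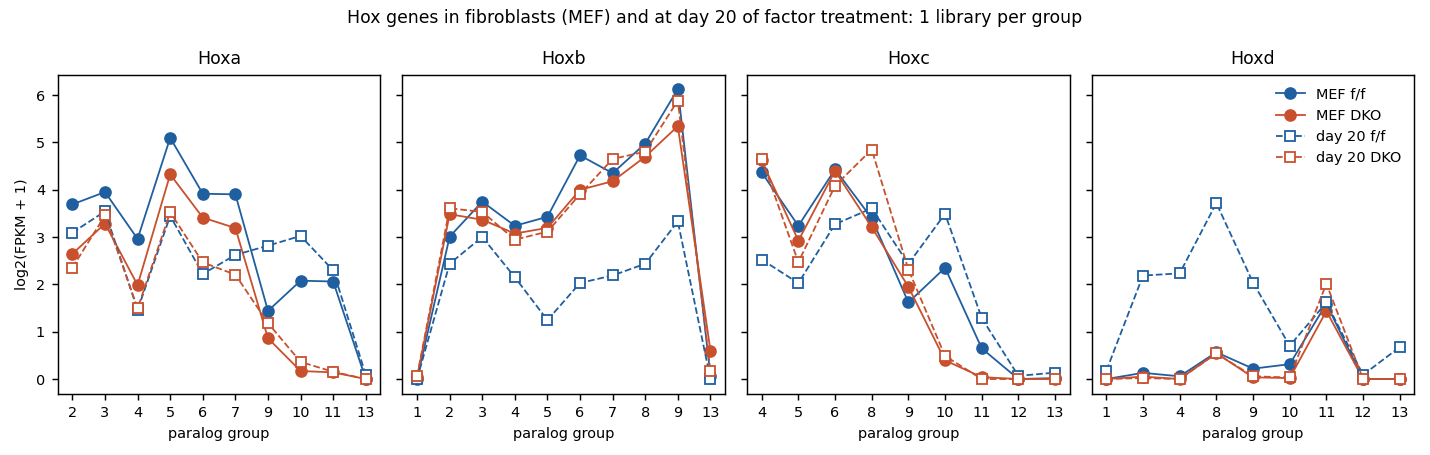
Level of the same 38 Hox genes by paralog group in the 2 MEF libraries (filled) and the 2 day-20 libraries (open), as log2(FPKM + 1), 1 library per group and genotype. The f/f day-20 line lies below the others from group 2 to group 9 of HoxB and above them at groups 3, 4, 8 and 9 of HoxD, and the 2 lines of libraries labelled DKO fall to near 0 at groups 10 and 11 of HoxA and HoxC.

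The cell markers differed as well between these libraries. The 20 fibroblast markers summed to 6744 FPKM in f/f MEF, 5880 FPKM in the MEF library labelled DKO, 15242 FPKM in f/f day 20 and 11816 FPKM in the day-20 library labelled DKO, with none at 0. The 10 ESC markers summed to 36.4 FPKM in the f/f day-20 library against 7.52 FPKM in f/f MEF and 10.1 FPKM in the day-20 library labelled DKO, far below the 2574 FPKM of f/f ESC in replicate 2. In f/f day 20 most of the sum was Pou5f1 (Oct4, a delivered factor) at 19.8 FPKM and Sox2 at 9.36 FPKM, which the values do not tell apart from delivered copies. Nanog stood at 7.26 FPKM in f/f MEF and 5.49 FPKM in f/f day 20, and the other 7 markers were under 1 FPKM. In the day-20 library labelled DKO, Pou5f1 stood at 0.118 FPKM and Sox2 at 0.243 FPKM, against 0.0906 and 0.0532 FPKM in the MEF library labelled DKO. Nanog, at 9.68 FPKM, made up most of the sum in that day-20 library. Of the noncoding RNAs of the clusters, the short hairpin row of Mir196a-1 next to Hoxb9 stood at 22.4 and 16.1 FPKM in MEF and at 4.70 and 39.8 FPKM at day 20. Of 11 TALE cofactors, 2 were at least 2-fold lower and 1 higher in f/f day 20 than in f/f MEF (5.75% and 7.17% of all genes), with Pknox2 lower by 2.55 and Meis3 higher by 1.03 on the log2 scale. Retinoid pathway genes gave 4 higher and 0 lower of 12, against the same shares, among them Crabp1 (5.21), Rdh10 (1.92) and Aldh1a1 (1.55). How much of the Hox difference goes with these shifts was not tested.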

How the data were processed

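RNA was sequenced from 12 mouse libraries, from mRNA purified with Dynabeads out of Trizol-extracted total RNA, per the labels' protocols. For replicate 1 of ESC and EB the authors deposited read counts with RPKM for each RefSeq transcript, and for the other libraries FPKM for each gene, per the file headers. Tools and build named in the submitters' processing notes are mm9, bedtools 2.16 and SICER 1.1 for the former and CASAVA 1.8.2 for the latter. Aligner, annotation and strand setting: not given in the sources used here. Chromatin and input libraries (24) were not used here.

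Of 29082 transcripts, 28436 were matched to genes through RefSeq accessions (GRCm38.p6, names only), and 22456 genes were in both kinds of table. Each gene took the values of its transcript with most reads: 37 Hox genes had 1 transcript, and Hoxa10 and Hoxb3 had 2. Reads behind FPKM were estimated from the steps of low genes, of which 90.3% to 91.9% per library were whole within 0.02 reads. For the Hox genes, 83.0% of 312 such values were whole within 0.05 reads. Libraries held 11366233 to 38264254 reads, and a gene of few reads is imprecise whatever the fold.

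Groups were compared with limma 3.58.1 (R 4.3.3) on log2(value + 1), two-sided, with a mean-variance trend, over the 8 ESC and EB libraries, with the 4 groups and the batch as terms. Genes with a mean of at least 1 were tested (12466), with Benjamini-Hochberg adjustment over all of them and a threshold of 0.05. Deviations from the group means were shared within a batch (correlations over genes of 0.864 to 0.954 between groups), so the batch, given by the titles and the table format, was kept as a block. The labels do not say whether replicates are separate cultures, and the p-values then reflect only how far these samples, perhaps technical repeats, spread. Between single libraries, genes with a mean of at least 1 FPKM were called past 2-fold on log2(FPKM + 1), with no p. Alternatives were a pseudocount of 0.1, a mean of at least 0.1, median-of-ratios and quantile scaling, the mean over transcripts, no batch term, edgeR 4.0.16 on reads (estimated reads rounded), each library left out, a 4-fold call and, chosen after seeing the data, both values of 0.1 together. Every Hox gene could be named (a few results on single genes are not reported here), and of other lists up to 3 genes per list and comparison, by size of the difference. The members and lists were chosen with earlier results of these data known. The test was checked on simulated data.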

Additional observations from a re-analysis of the deposited data

Results flagged for a closer look

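Hoxa10 and Hoxa11 were lower in the MEF library labelled DKO than in f/f MEF, by log2(FPKM + 1) differences of -1.91 and -1.92, while in ESC both DKO libraries lay above the f/f library of their batch. The opposite directions were not tested, since each MEF group has 1 library. Hoxb7, Hoxb8 and Hoxb9 were lower at day 20 than in MEF among f/f cells, by -2.16, -2.54 and -2.80 on the same scale. Between the libraries labelled DKO the differences were small, at 0.47, 0.11 and 0.54, and none was past 2-fold. This too was not tested, for the same reason.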

How the results depend on the processing

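In ESC the count of Hox genes called between genotypes, all higher in DKO, was 1 in the main test, 3 with a pseudocount of 0.1, 4 with edgeR on reads, 4 with a mean of at least 0.1 and a pseudocount of 0.1 together, and 0 with no replicate block, where no gene of any kind passed. In EB the main count of 1 became 2 with a pseudocount of 0.1, 2 with a mean of at least 0.1 (Hoxb13 higher, Hoxb1 lower), 4 with both (3 higher, and Hoxb1 lower), and 0 with no replicate block. Leaving out 1 library gave 0 to 6 in ESC and 0 to 5 in EB. In ESC it was 0 without any one of its own 4 libraries and 6 without either DKO EB library. The EB count fell to 0 with replicate 1 of f/f ESC, either replicate of f/f EB or replicate 1 of DKO EB left out, and was 5 without replicate 2 of DKO EB. Between f/f EB and f/f ESC, the count of 0 became 1 with a mean of at least 0.1 (Hoxb1) and 1 with both values of 0.1 (Hoxd1). The Hoxc8 difference in EB, -0.13, lay between -0.30 and 0.042 when 1 library was left out, and turned positive without replicate 2 of DKO EB. Between single libraries, a 4-fold call left 0 of 4 Hox genes in MEF, 10 of 16 at day 20, 8 of 19 for day 20 against MEF in f/f and 0 of 1 in the libraries labelled DKO, where a pseudocount of 0.1 gave 3 and median-of-ratios scaling 2. The cause of these changes was not tested. Most Hox genes in ESC and EB had few reads, so a member that did not pass is not shown to be alike between genotypes.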

Other observations

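Factors of the limb fields, chosen after their values were seen, went in different directions between the fibroblast libraries. Tbx4 and Pitx1 were lower in the libraries labelled DKO, as the posterior HoxA genes were, while Shox2 was higher and Tbx5 differed less. Tbx4, a hindlimb factor, stood at 1.62 FPKM in f/f MEF and 6.49 FPKM in f/f day 20, and at 0.0321 and 0.0262 FPKM in the libraries labelled DKO. Pitx1, also of the hindlimb, stood at 3.29 and 2.55 FPKM against 0.0747 and 0.0349 FPKM. Tbx5, of the forelimb, stood at 0.588 and 1.07 FPKM against 0.557 and 0.585 FPKM, and Shox2, of the proximal limb, at 3.21 and 5.47 FPKM against 48.1 and 71.0 FPKM. Each group has 1 library, so none of these differences has a replicate check.

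In the ESC and EB libraries, Gsx2, a ParaHox gene outside the 4 clusters, had levels of 0.196 and 0.0835 in f/f against 0.456 and 0.614 in DKO ESC, and of 0.129 and 0.0528 against 2.49 and 0.625 in EB. Gsx1 had 0.0613 and 0.0262 against 1.03 and 0.183 in ESC and 0.121 and 0 against 1.34 and 1.97 in EB. Both were above the f/f library of their batch in all 4 DKO libraries, and both were too low for the main test. Other ParaHox and Cdx genes went the other way in EB. Cdx2 stood at 1.47 and 2.63 in f/f against 0.282 and 0.277 in DKO EB, and Cdx4 at 0.470 and 0.386 against 0 in both. Evx1 was also lower in DKO EB, as given above, while Pdx1, at most 0.231, was higher.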
